A study of Mus musculus with 17 samples.

Results

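The 9 genes described here act at 3 points of the antiviral interferon pathway. Ddx58, Ifih1 and Dhx58 encode cytosolic RNA sensors, Stat2 encodes a signal transducer of the interferon receptors, and Irf1, Irf3, Irf7, Irf8 and Irf9 encode interferon regulatory factors. They were chosen by symbol, and each has a row in both deposited count tables: 9 of 38293 gene IDs in the table of gland and uncloned organoids, and 9 of 55487 in the table of clones. All 9 passed the count filter and were tested in both tables, among 13713 and 14282 genes tested. Irf8 had at most 7 counts in a library of a clone labelled Pax6-KO, against 43 to 486 counts in libraries of wild-type clones. The samples are RNA libraries of mouse lacrimal gland, the source of the watery layer of tears, and of lacrimal gland organoids, which are epithelial cultures kept in a basement membrane gel. The 17 libraries fall into 7 groups, and the study set differentiation medium (DM) against expansion medium (EM), organoids against the gland, and Pax6-KO clones against wild-type (WT) clones. Pax6 is a transcription factor of eye and lacrimal gland development.

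The uncloned groups are WT organoids of lines 6, 7 and 8 in DM, the same lines in EM, and gland tissue numbered 6, 7 and 8 (n = 3 each). The clone groups are 2 clones labelled Pax6-KO and 2 WT clones, each in DM and in EM (n = 2 per group). The growth protocol gives 7 days in EM for expansion, and 2 days in EM followed by 5 days in DM for differentiation. The series text gives the clones 7 days in either medium, so their time in DM is uncertain. The sources used here give no strain, no age, no edit behind the KO label and no line of origin for a clone. With 2 clones per label, a difference between labels cannot be told apart from a difference between these clones, and p-values measure only the spread between these samples.

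RIG-I, the product of Ddx58, and MDA5, the product of Ifih1, bind viral RNA and signal through the mitochondrial adaptor MAVS to kinases that phosphorylate IRF3 and IRF7. LGP2, the product of Dhx58, lacks the caspase recruitment domains of the other sensors and modulates their signalling. Interferons released by a cell act through receptors and JAK kinases on ISGF3, a complex that holds STAT2 and IRF9 and binds the interferon-stimulated response element (ISRE). IRF3 is made constitutively in most cells, while Irf7, the sensor genes and the ISGF3 genes are themselves interferon-stimulated. IRF1 is induced by gamma interferon through the gamma-activated site (GAS), and IRF8 is best known as a lineage factor of macrophages, dendritic cells and B cells.

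Promoter windows of RefSeq on GRCm38.p6, 250 bases before to 50 bases after the first transcribed base, were found for 8 of the 9 genes, in 11 windows. They are shown for 7 genes that behaved differently in the clones in EM: Ddx58, Ifih1, Stat2 and Irf7, which rose in KO, Irf8, which fell, and Irf1 and Irf3, which did not pass the test. Capitals mark matches on either strand to the ISRE (letters GAAANNGAAA), to a shorter spacing of these letters labelled IRF-E here (GAAANGAAA), or to GAS (TTCNNNGAA). IRF-E is only a label of this search, and its letters were not checked against a published interferon regulatory factor element. IRF-E and ISRE matches may overlap, as in Stat2.
Ddx58 (chr4:40239776-40240075, minus strand): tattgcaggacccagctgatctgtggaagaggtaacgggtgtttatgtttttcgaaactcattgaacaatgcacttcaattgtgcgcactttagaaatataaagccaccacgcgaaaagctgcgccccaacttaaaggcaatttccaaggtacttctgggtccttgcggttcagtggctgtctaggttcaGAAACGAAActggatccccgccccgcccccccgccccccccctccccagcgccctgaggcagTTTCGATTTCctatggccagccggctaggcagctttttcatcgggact
Ifih1 (chr2:62646206-62646505, minus strand): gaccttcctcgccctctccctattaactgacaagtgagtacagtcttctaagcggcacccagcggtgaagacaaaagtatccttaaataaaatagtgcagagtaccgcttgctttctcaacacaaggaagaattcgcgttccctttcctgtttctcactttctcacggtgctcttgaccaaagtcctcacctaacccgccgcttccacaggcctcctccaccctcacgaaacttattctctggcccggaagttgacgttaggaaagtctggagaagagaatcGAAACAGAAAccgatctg
Stat2 (chr10:128270248-128270547, plus strand): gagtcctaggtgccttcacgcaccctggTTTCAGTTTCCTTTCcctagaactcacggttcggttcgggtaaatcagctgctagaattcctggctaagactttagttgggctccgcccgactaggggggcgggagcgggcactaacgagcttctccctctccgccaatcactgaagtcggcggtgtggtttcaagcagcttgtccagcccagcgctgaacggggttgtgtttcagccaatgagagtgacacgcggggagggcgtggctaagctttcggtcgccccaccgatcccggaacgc
Irf1 (chr11:53769764-53770063, plus strand): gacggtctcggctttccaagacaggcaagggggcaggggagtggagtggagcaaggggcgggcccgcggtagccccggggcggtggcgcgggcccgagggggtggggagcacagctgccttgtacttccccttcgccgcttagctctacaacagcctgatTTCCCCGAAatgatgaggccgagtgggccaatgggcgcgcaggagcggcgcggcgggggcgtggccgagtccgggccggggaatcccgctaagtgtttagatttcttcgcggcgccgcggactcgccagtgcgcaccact
Irf8 (chr8:120736108-120736407, plus strand): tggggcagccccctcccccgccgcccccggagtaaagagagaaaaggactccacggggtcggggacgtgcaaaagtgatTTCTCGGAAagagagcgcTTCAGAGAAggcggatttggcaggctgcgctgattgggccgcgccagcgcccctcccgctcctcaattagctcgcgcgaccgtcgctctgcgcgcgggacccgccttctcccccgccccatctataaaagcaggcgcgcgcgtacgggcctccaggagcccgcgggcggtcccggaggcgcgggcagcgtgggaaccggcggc
Irf7 (chr7:141266375-141266674, minus strand): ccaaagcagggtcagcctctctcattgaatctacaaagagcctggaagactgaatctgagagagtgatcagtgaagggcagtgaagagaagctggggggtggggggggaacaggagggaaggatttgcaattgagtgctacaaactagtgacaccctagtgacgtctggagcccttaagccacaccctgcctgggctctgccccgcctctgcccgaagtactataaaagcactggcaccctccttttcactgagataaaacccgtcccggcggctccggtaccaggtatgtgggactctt
Irf3 (chr7:44997398-44997697, plus strand): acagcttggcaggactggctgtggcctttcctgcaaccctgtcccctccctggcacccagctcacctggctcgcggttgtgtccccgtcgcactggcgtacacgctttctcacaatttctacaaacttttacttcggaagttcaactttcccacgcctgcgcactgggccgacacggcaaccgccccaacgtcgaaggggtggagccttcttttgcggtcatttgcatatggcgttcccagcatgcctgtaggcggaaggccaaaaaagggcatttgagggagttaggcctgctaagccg

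The ISRE letters stood in windows of 3 genes. In Ddx58 they ran over window bases 253 to 262, just past the transcription start, in Ifih1 over bases 283 to 292, and in Stat2 over bases 29 to 38. The IRF-E letters stood in Ddx58 (bases 191 to 199) and in Stat2 (bases 35 to 43). GAS letters stood once in the Irf1 window (bases 161 to 169) and at 2 places in the Irf8 window (bases 80 to 88 and 98 to 106). Of all 32851 windows of the same length, 3.44% held the ISRE letters, 3.17% the IRF-E letters and 8.3% the GAS letters. None of these letters was found in the windows of Irf3, Irf7 and Irf9 or in the second windows of Irf1 and Irf8, which says only that these windows lack them. A match is not a binding site, and no binding was measured.

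Total counts ran from 12801473 to 19207469 per library in the table of gland and uncloned organoids and from 18282059 to 22500534 in the table of clones. Levels are given as CPM, counts relative to the library size as scaled within each table, so they are compared only within a table. The 10 most abundant genes took 5.93 to 7.36% of counts in organoids and 65.5 to 67.6% in the gland. Pax6 itself was at 135 and 309 CPM in KO clones in DM, against 219 and 279 CPM in WT clones in DM. In EM it was at 172 and 271 CPM in KO clones, against 245 and 276 CPM in WT clones. Pax6 counts over the whole gene did not separate the labels and do not test a short sequence change, so every direction between KO and WT below is drawn from the labels.

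In the clones in EM, the sensor genes, Stat2, Irf9 and Irf7 were all higher in the clones labelled KO than in WT clones, and Irf8 was nearly lost. By edgeR's quasi-likelihood test, 6 of the 9 genes rose, Irf8 fell, and Irf1 and Irf3 did not pass the test; 9.8% of all genes tested were called in that comparison, 5.38% as higher and 4.41% as lower. In DM edgeR called only Ddx58, as higher, and Irf8, as lower, against 5.47% of all genes called (2.39% higher and 3.08% lower). Both KO clones were above both WT clones for 7 of the genes in EM and for 6 in DM, and both below for 2 in each, but the groups also did not overlap for 61.6% of all genes tested in EM (31.1% higher) and for 52.5% in DM (26.3% higher). DESeq2 called 7 of the 9 in either medium, against 15.9% of the genes it tested in EM and 12.2% in DM. A call here is an adjusted p (Benjamini-Hochberg over all genes tested) under 0.05. Where a call below ended with a clone library left out, that fit held 1 library in a group, and fewer of all genes were called too.

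**Figure D1:**
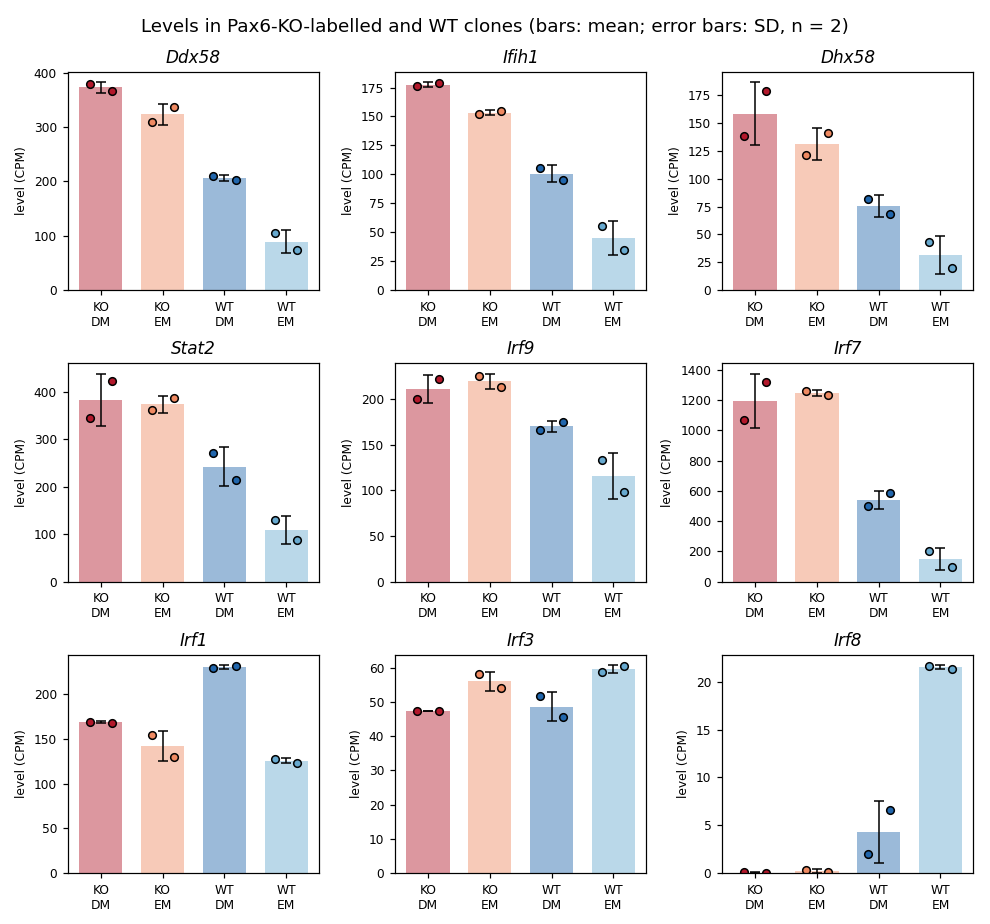
CPM of the 9 genes in each clone library, grouped by label and medium; bars are means of 2 clones, error bars SD, points libraries, and the y axis of each panel starts at 0. For Irf7 the 4 KO libraries lie between 1067 and 1322 CPM, above all 4 WT libraries (98.5 to 583 CPM), and for Irf8 the 4 KO libraries lie at or near 0.

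Ddx58 (chr4:40203773-40239828), the RIG-I gene, had 379 and 366 CPM in KO clones in DM, against 210 and 202 CPM in WT clones in DM. In EM it had 310 and 336 CPM in KO clones, against 104 and 74.4 CPM in WT clones. All KO libraries were above all WT libraries, and the lowest values of all were those of WT clones in EM. Ddx58 rose in KO in DM (log2 fold change 0.85 ± 0.16 SE, edgeR adjusted p = 0.0333) and in EM (1.86 ± 0.16, adjusted p = 0.00464). The call in DM ended when any one of its 4 libraries was left out (adjusted p 0.0802 to 0.158), with folds of 0.83 to 0.88.

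Ifih1 (chr2:62595798-62646255), the MDA5 gene, had 176 and 179 CPM in KO clones in DM, against 106 and 95.2 CPM in WT clones in DM. In EM its values were 152 and 155 CPM in KO clones, against 55.4 and 34.3 CPM in WT clones. KO and WT libraries did not overlap in either medium, and the KO clones of a group lay within a few CPM of each other. Ifih1 rose in KO in EM (1.77 ± 0.21, edgeR adjusted p = 0.00694), while in DM its fold of 0.82 ± 0.20 did not pass (adjusted p = 0.0646).

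Dhx58 (chr11:100694884-100704271), the LGP2 gene, had 139 and 179 CPM in KO clones in DM, against 82.3 and 68.2 CPM in WT clones in DM. In EM it stood at 121 and 141 CPM in KO clones, against 43.5 and 19.7 CPM in WT clones. Again no KO library overlapped a WT library, and the clones of a label spread more widely, in proportion, than for the other sensors. Dhx58 rose in KO in EM (2.06 ± 0.35, edgeR adjusted p = 0.0168), a call that ended without KO clone 1 (2.17, adjusted p = 0.0667) or KO clone 2 (1.93, adjusted p = 0.0969). In DM the fold was 1.08 ± 0.33 (adjusted p = 0.111). Exons of Dhx58 overlap the antisense gene Dhx58os by 141 bases, and the sources used here do not give the strand setting of the counting.

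Stat2 (chr10:128270559-128292849), a subunit of ISGF3, had 343 and 421 CPM in KO clones in DM, against 271 and 213 CPM in WT clones in DM. In EM there were 361 and 386 CPM in KO clones, against 129 and 87.4 CPM in WT clones. The KO clones reached about the same level in both media, and WT clones in EM were lowest. Stat2 rose in KO in EM (1.79 ± 0.22, edgeR adjusted p = 0.00743; without KO clone 2, 1.73 and adjusted p = 0.0509), and its fold in DM was 0.66 ± 0.21 (adjusted p = 0.119).

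Irf9 (chr14:55603571-55610030), the DNA-binding subunit of ISGF3, had 200 and 222 CPM in KO clones in DM, against 165 and 174 CPM in WT clones in DM. In EM the values were 225 and 213 CPM in KO clones, against 133 and 97.8 CPM in WT clones. Its groups did not overlap in either medium, but the distance between labels was smaller than for Stat2. Irf9 rose in KO in EM (0.93 ± 0.15, edgeR adjusted p = 0.0159), and in DM its fold was 0.31 ± 0.15 (adjusted p = 0.261). The call in EM ended without KO clone 1 (adjusted p = 0.0871), KO clone 2 (0.0872) or WT clone 2 (0.0537). Irf9 shares 123 exonic bases with Rnf31 on the same strand, so some of its reads may belong to either gene.

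Irf7 (chr7:141262706-141266481), the interferon-inducible regulator of interferon genes, had the highest mean of the 9 per kilobase of merged exons in every clone group, although Irf1 led in WT clones in EM with the longest transcript as length. It had 1067 and 1322 CPM in KO clones in DM, against 497 and 583 CPM in WT clones in DM. In EM it had 1260 and 1231 CPM in KO clones, against 203 and 98.5 CPM in WT clones. All KO libraries exceeded all WT libraries, and WT clone 2 in EM was lowest. Irf7 rose in KO in EM by 3.05 ± 0.34 on the log2 scale (edgeR adjusted p = 0.00623), the largest rise among the 9, and its fold in DM was 1.15 ± 0.31 (adjusted p = 0.082).

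Irf3 (chr7:44997648-45002848), the constitutive partner of Irf7 downstream of the sensors, did not pass the test. It had 47.3 and 47.5 CPM in KO clones in DM, against 51.7 and 45.7 CPM in WT clones in DM. In EM it had 58.0 and 54.1 CPM in KO clones, against 58.8 and 60.4 CPM in WT clones. The labels overlapped in DM and differed by a few CPM in EM. Its folds were -0.04 ± 0.10 in DM (edgeR adjusted p = 0.85) and -0.09 ± 0.10 in EM (adjusted p = 0.615).

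Irf1 (chr11:53770014-53778374), the regulator induced by gamma interferon and NF-kappaB, was ordered differently. It had 169 and 168 CPM in KO clones in DM, against 229 and 232 CPM in WT clones in DM. In EM it had 154 and 130 CPM in KO clones, against 127 and 123 CPM in WT clones. The WT clones in DM were the highest libraries, and KO lay below WT in DM but above WT in EM. Neither difference passed edgeR's test, with folds of -0.45 ± 0.10 in DM (adjusted p = 0.0552) and 0.18 ± 0.10 in EM (adjusted p = 0.312), but DESeq2 called the one in DM (-0.44, adjusted p = 0.00498).

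Irf8 (chr8:120736358-120756694), the myeloid and B-cell factor, was lower in KO clones. These clones had 2 and 0 counts in DM, against 43 and 116 counts in WT clones in DM. In EM the KO clones had 7 and 2 counts, against 486 and 456 counts in WT clones. On the CPM scale these were 0.103 and 0 CPM in KO in DM against 1.97 and 6.60 CPM in WT in DM, and 0.353 and 0.104 CPM in KO in EM against 21.7 and 21.4 CPM in WT in EM. No KO library reached the lowest WT library. Irf8 fell in KO in DM (-6.19 ± 1.01, edgeR adjusted p = 0.026) and in EM (-6.51 ± 0.85, adjusted p = 0.00857). At so few counts the fitted folds depend on the prior count. The ratio of WT over KO, depth-scaled, was 77.3 in DM (exact 95% Poisson interval 21 to 644, from 2 counts in KO and 159 in WT) and 93.2 in EM (48.9 to 205, from 9 and 942 counts); the intervals cover counting error only.

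Both Irf8 calls ended without either KO clone, in fits with a single library in the KO group. With each of the 4 libraries left out in turn, the Irf8 fold ran from -7.603 to -5.911 in EM and from -9.425 to -5.082 in DM. The Irf8 neighbours on chromosome 8 were looked up after its values were seen. Cox4i1, a cytochrome oxidase subunit gene 62151 bases upstream, fell in KO in EM by 0.53 ± 0.10 on the log2 scale (edgeR adjusted p = 0.0211). Emc8, 67785 bases upstream, had a fold of 0.13 ± 0.12 in EM (adjusted p = 0.526), and Mthfsd, 334934 bases downstream, had -0.07 ± 0.13 (adjusted p = 0.794). Foxf1, 327692 bases downstream and under 2 CPM in every clone library, had -0.06 ± 0.67 (adjusted p = 0.965). In DM, Foxf1 had a larger fold of -2.59 ± 0.72 that did not pass (adjusted p = 0.0859), while Cox4i1 had -0.18 ± 0.10 (0.295), Emc8 0.28 ± 0.12 (0.22) and Mthfsd -0.09 ± 0.13 (0.71).

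**Figure D2:**
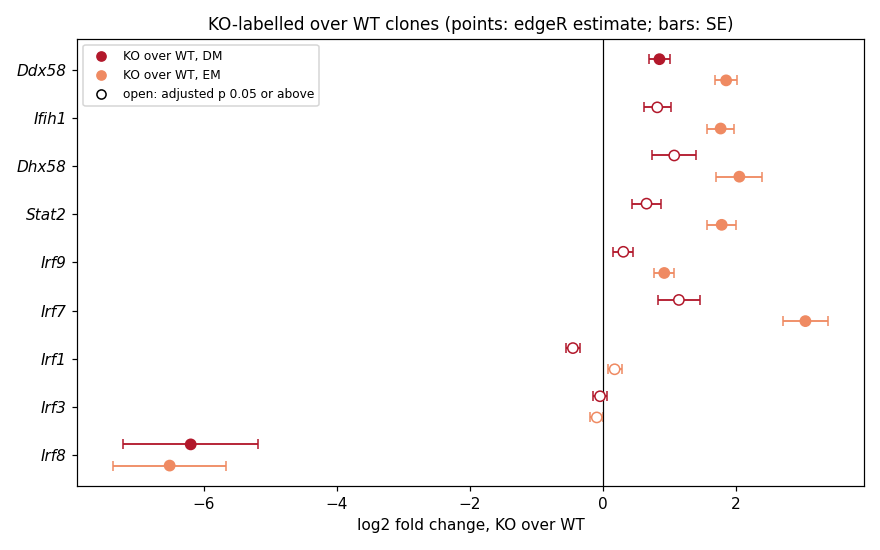
Log2 fold change of KO over WT clones for the 9 genes, in DM (red) and EM (orange); points are edgeR estimates, bars SE, and open points did not pass the adjusted p of 0.05. The sensors, Stat2, Irf9 and Irf7 lie right of 0 in both media, farther in EM, Irf1 lies left of 0 in DM (-0.45) and right of it in EM (0.18), Irf3 lies within 0.1 of 0, and Irf8 lies beyond -6 in both.

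The rest of the pathway in EM was counted over lists of named genes, where 5.38% of all genes tested were called higher and 4.41% lower. Of 24 interferon-stimulated effector genes, 22 rose in KO and 1 fell, with a median log2 fold change of 2.32 against 0.005 over all genes tested. Ifit2, an interferon-induced antiviral protein gene, rose by 3.90 (edgeR adjusted p = 0.00273) and Rsad2, the antiviral enzyme viperin, by 4.04 (0.00273), while Ifi27, another interferon-stimulated gene, fell by 1.89 (0.00273). Of 12 tested targets of IRF1 and gamma interferon, 11 rose, with Cxcl10, a T-cell chemokine, up by 4.10 (0.00467) and Psmb9, an immunoproteasome subunit, up by 2.20 (0.00504).

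Genes upstream were counted in the same way, beside the same shares of all genes (5.38% higher and 4.41% lower). Of 18 sensing partners 7 rose and 1 fell in KO in EM, with a median of 0.52. Rnf135, a ubiquitin ligase that activates RIG-I, rose by 1.34 (edgeR adjusted p = 0.00629) and Zbp1, a sensor of Z-form nucleic acid, by 3.43 (0.0112), while Mavs, the adaptor of RIG-I and MDA5, fell by 0.56 (0.0227). Of 16 kinases and adaptors, Irak1, Traf3 and Traf6 rose, by 0.39 to 0.57, and of 9 receptors and JAK kinases only Jak2 did (0.83, adjusted p = 0.00623). The medians of these 2 lists were 0.155 and 0.002. Of 17 feedback inhibitors, 4 rose: the SOCS inhibitors Socs1 (2.08, 0.00835) and Socs2 (0.94, 0.0411), Usp18, which restrains the type I receptor (2.48, 0.0143), and Trim21, an intracellular antibody receptor (1.35, 0.00615). None of 7 other IRFs and IRF2 binding proteins was called.

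In DM, between KO and WT, 4 of 24 effectors rose and 1 fell, 3 of 12 IRF1 targets rose, and 3 of 18 sensing partners rose and 2 fell. The medians were 0.85, 1.07 and 0.20, against -0.01 over all genes tested, of which 2.39% were called higher and 3.08% lower. Of 16 kinases and adaptors 2 fell, and 0 of 9 receptors and JAK kinases were called. Single genes rose among 17 feedback inhibitors, 7 other IRFs and IRF2 binding proteins, and 5 other STATs tested. Ifit2 (2.07, edgeR adjusted p = 0.0152), Gbp3 (1.99, 0.0151) and Cxcl10 (2.37, 0.0223) rose, and Mavs (-0.68, 0.0249) and Ifi27 (-1.82, 0.00734) fell. Both genotype comparisons are also linked to the medium comparisons through shared libraries.

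Interferon transcripts were barely seen. None of 14 listed interferon genes had enough counts to be tested, and their summed level was 0.205 to 0.796 CPM in KO clones in DM against 0.455 to 0.64 CPM in WT clones in DM. In EM it was 0.417 to 0.606 CPM in KO clones and 0 to 0.134 CPM in WT clones. The counts came from Ifnb1, Ifnl2, Ifnl3 and Ifne, with at most 10 counts of a gene over both libraries of a group (10 of Ifnl2 in KO in DM, and 8 of Ifnl3 in KO in EM against 1 in WT in EM). Over all listed genes, KO clones had 20 counts in EM against 3 in WT clones in EM, and 19 in DM against 22 in WT clones in DM. The libraries of the labels thus did not overlap in EM and overlapped in DM, and no test was made at these counts.

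Markers of immune cells were counted beside these results. Ptprc, the pan-leukocyte marker CD45, and the macrophage markers Adgre1, C1qa, C1qb and C1qc were at 0 counts in every organoid library of both tables, as was Siglech, a marker of plasmacytoid dendritic cells. The 6 plasmacytoid markers, Siglech included, summed to 631 to 693 CPM in KO in DM and 361 to 400 CPM in WT in DM. In EM they summed to 553 to 575 CPM in KO and 79.2 to 164 CPM in WT. Most of that sum was Bst2, also counted among the effectors, with means of 547 CPM in KO in EM and 108 CPM in WT in EM. The summed level of 19 macrophage and dendritic cell markers was 39.2 to 56.2 CPM in KO clones in DM against 154 to 209 CPM in WT clones in DM, and 47.1 to 79.8 CPM in KO clones in EM against 114 to 168 CPM in WT clones in EM. Most of the level of these 19 was Cd68, a lysosomal glycoprotein, with means of 48.3 CPM in KO in EM and 124 CPM in WT in EM, and Itgam, at 13.7 CPM in KO in EM and 12.8 CPM in WT in EM. The 8 epithelial markers summed to 6822 CPM or more in every clone library.

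Within WT clones, Ddx58, Ifih1, Stat2, Irf7 and Irf1 were higher in DM than in EM. By edgeR these 5 of the 9 genes rose, against 15.7% of all genes called (9.61% higher and 6.13% lower). Ddx58 rose by 1.21 ± 0.16 on the log2 scale (adjusted p = 0.00543), Ifih1 by 1.16 ± 0.21 (0.0129), Stat2 by 1.16 ± 0.21 (0.0146), Irf1 by 0.88 ± 0.10 (0.00406) and Irf7 by 1.84 ± 0.32 (0.0124). Both WT clones in DM were above both in EM for these genes, as for 29.3% of all genes. Dhx58 (1.25 ± 0.34, adjusted p = 0.05003), Irf9 (0.56 ± 0.15, 0.0502) and Irf8 (-2.34 ± 0.65, 0.0527) lay just past the threshold and Irf3 (-0.29 ± 0.10, 0.0931) farther from it. With the clone as a block, which pairs the media of a clone, 8 of the 9 were called, against 25.5% of all genes, with Dhx58 at 1.34 (adjusted p = 0.00372), Irf9 at 0.57 (0.0278) and Irf8 at -2.51 (0.00628). The Stat2 call ended without WT clone 1 in DM (adjusted p = 0.055) or WT clone 2 in EM (0.0568).

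In the KO clones none of the 9 genes was called by edgeR or DESeq2 in DM over EM, where edgeR called 8.35% of all genes (4.94% higher and 3.41% lower) and DESeq2 13.8%. By edgeR 2 of the 9 had an unadjusted p under 0.05, as had 3510 of all 14282 genes tested. These 2 were Irf1 (0.25 ± 0.10, adjusted p = 0.198) and Irf3 (-0.24 ± 0.10, adjusted p = 0.192). Folds of the sensors were 0.21 ± 0.16 for Ddx58, 0.21 ± 0.20 for Ifih1 and 0.27 ± 0.33 for Dhx58, and Irf7 had -0.06 ± 0.31. Irf8 had 2 counts in DM and 9 in EM over both KO clones, and the ratio of EM over DM was 4.42 (exact 95% Poisson interval 0.916 to 42.1).

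The difference of the medium effect between labels was tested as an interaction. By edgeR 0 of 14282 genes were called (0% called), 1126 had an unadjusted p under 0.05, and 6 of the 9 were among these. The fold was below 0, that is smaller in KO, for 7 of the 9, with a median of -0.95. It was -1.90 ± 0.44 for Irf7 (adjusted p = 0.353), -1.13 ± 0.30 for Stat2 (0.414), -1.002 ± 0.224 for Ddx58 (0.335) and -0.63 ± 0.15 for Irf1 (0.353). DESeq2 called 195 genes (1.58%), 4 of the 9 among them: Irf7 (adjusted p = 0.00106), Ddx58 (0.0074), Stat2 (0.0267) and Irf1 (0.0302). With the clone as a block edgeR called 74 genes (0.518%) and of the 9 only Stat2 (-1.15, adjusted p = 0.0434).

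**Figure D3:**
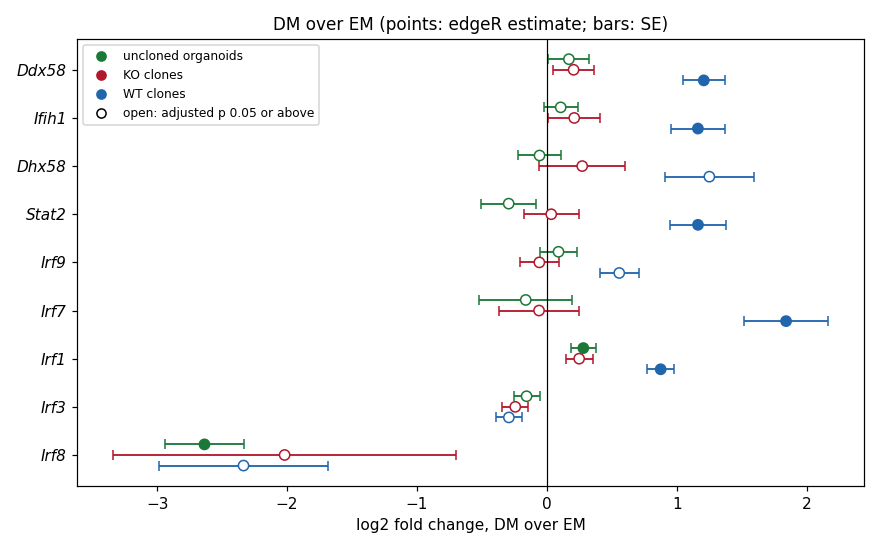
Log2 fold change of DM over EM for the 9 genes in uncloned organoids (green), KO clones (red) and WT clones (blue); points are edgeR estimates, bars SE, and open points did not pass the adjusted p of 0.05. The WT clones lie right of 0 for the sensors, Stat2, Irf9, Irf7 and Irf1, while the uncloned organoids and KO clones lie near 0 for most of these, and Irf8 lies left of 0 in all 3.

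In uncloned organoids of WT lines the sensors, Stat2, Irf9 and Irf7 did not pass the test between media. Of the 9 genes Irf1 rose and Irf8 fell in DM over EM, against 30.3% of all genes called (17.2% higher and 13.2% lower). Irf8 had 1.13, 0.807 and 1.86 CPM in DM in lines 6, 7 and 8, against 9.33, 8.91 and 5.50 CPM in EM. Every DM library was below every EM library, and the fold was -2.64 ± 0.30 (edgeR adjusted p = 0.000114). Irf1 had 113, 90.9 and 101 CPM in DM, against 86.7, 84.9 and 79.1 CPM in EM. Its DM libraries were all above its EM libraries, by little for line 7. The rise of Irf1 was 0.28 ± 0.09 (adjusted p = 0.0434), and the call ended without line 6 in DM (adjusted p = 0.143) or without line 6 (0.0793), 7 (0.102) or 8 (0.154) in EM.

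Irf7 shows how far the uncloned lines differed in DM. It had 146, 90.0 and 298 CPM in lines 6, 7 and 8 in DM, against 192, 200 and 206 CPM in EM. The EM libraries were close together, and the DM libraries lay on both sides of them, with line 8 highest and line 7 lowest. Line 8 was the highest DM library for 7 of the 9 genes and line 7 the lowest for 8. The fold of Irf7 was -0.16 ± 0.36 (edgeR adjusted p = 0.774). Without line 8 in DM, Irf7 fell by 0.76 (adjusted p = 0.021) and Stat2 by 0.59 (0.00909), and the number of the 9 called was 4, against 38.2% of all genes.

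The remaining folds were below 0.3 in size. Ddx58 had 157, 119 and 190 CPM in DM, against 143, 130 and 142 CPM in EM (0.17 ± 0.16, edgeR adjusted p = 0.455). Stat2 had 109, 81.4 and 160 CPM in DM, against 147, 139 and 143 CPM in EM (-0.29 ± 0.21, adjusted p = 0.327). For both, the DM range enclosed the EM range. Folds of Ifih1, Dhx58, Irf9 and Irf3 were between -0.16 and 0.11, with adjusted p of 0.267 to 0.839. Of 24 interferon-stimulated effectors 1 rose (Gbp2, a guanylate-binding protein, 1.13, adjusted p = 0.00673), whereas 6 of 9 receptors and JAK kinases did, against 17.2% of all genes called higher. Among these, Ifngr1, a gamma-interferon receptor subunit, was up by 1.01 (0.000123) and Jak2 by 0.81 (0.000693). In the clones, DM over EM differed by label: 20 of the 24 effectors rose and 1 fell in WT (median 1.69, against 9.61% of all genes higher). In KO clones 0 of the 24 were called (median 0.19, against 4.94% of all genes higher).

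Against the gland, organoids in both media carried more transcript of the sensors, Stat2, Irf9, Irf7 and Irf1 and less of Irf3. By edgeR 7 of the 9 genes rose and 2 fell in DM over gland, where 75.5% of all genes were called (38.1% higher and 37.4% lower). In EM over gland 7 rose and Irf3 fell, where 74.8% were called (37.4% in each direction). With 3 in 4 genes called, a call by itself says little, and the sizes are given. The 2 comparisons share the gland libraries. Cell types moved with these comparisons. The 6 markers of acinar cells, the main secretory cells of the gland, summed to 24.4 to 29.5 CPM in DM and 7.12 to 8.56 CPM in EM, against 13972 CPM or more in the gland. The 6 fibroblast markers summed to at most 0.538 CPM in these organoids, against 655 to 788 CPM in the gland, and the 6 endothelial markers to at most 1.62 CPM, against 56.4 to 70.0 CPM. All of these markers fell in both media, while the 8 epithelial markers all rose (medians 2.93 in DM and 2.99 in EM). The part of this difference in cell types in the values below was not tested. In whole gland, fewer cells of a type and less RNA per cell cannot be told apart.

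**Figure D4:**
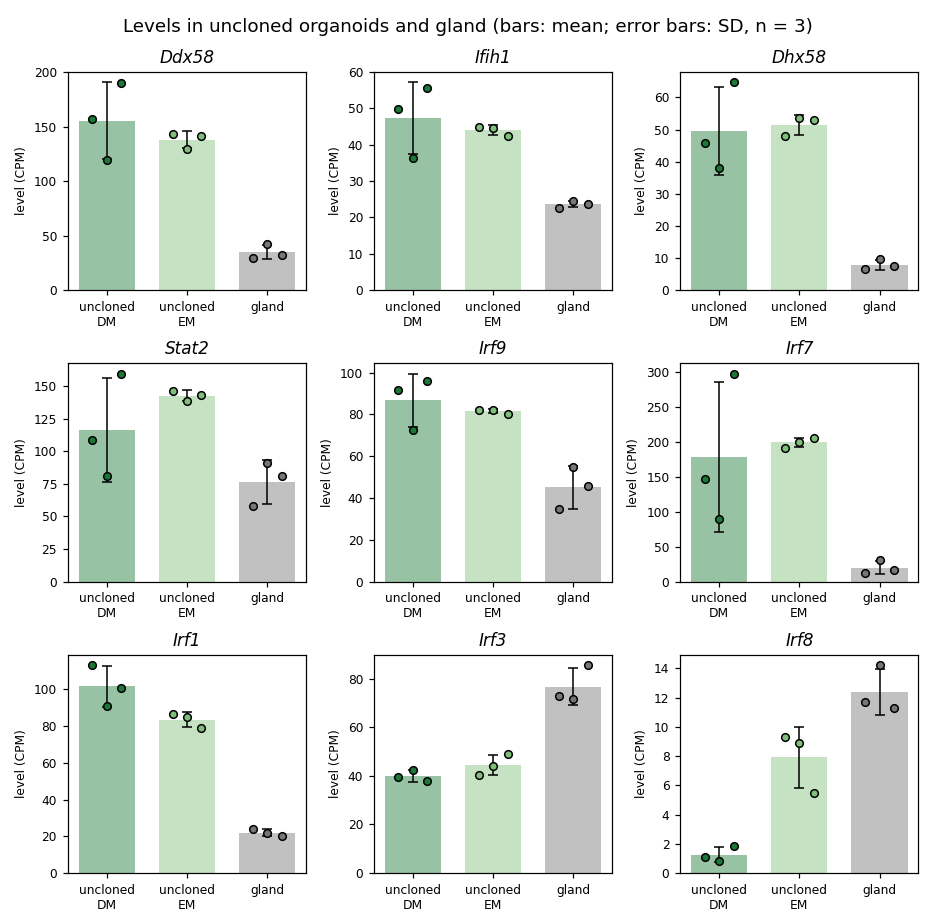
CPM of the 9 genes in uncloned organoids in DM and EM and in gland tissue; bars are means of 3 libraries, error bars SD, points libraries 6, 7 and 8 from left to right, and the y axis of each panel starts at 0. For 6 genes every organoid library lies above every gland library, as for 34.2% of all genes; for Stat2 the DM and gland libraries overlap, Irf3 is highest in gland, and Irf8 is lowest in DM.

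Ddx58 had 119 to 190 CPM in DM and 130 to 143 CPM in EM, against 29.6, 42.4 and 32.5 CPM in the gland. Its fold was 2.16 ± 0.18 in DM (edgeR adjusted p = 5.51e-07) and 1.99 ± 0.17 in EM (1.13e-06). Dhx58 had 45.9, 38.0 and 64.7 CPM in DM and 48.0, 53.4 and 53.1 CPM in EM, against 6.56, 9.65 and 7.58 CPM in the gland. The organoid libraries of both sensors were all above the gland libraries. Dhx58 rose by 2.65 ± 0.21 in DM (5.26e-07) and by 2.70 ± 0.21 in EM (4.7e-07). Ifih1 had 49.9, 36.5 and 55.6 CPM in DM and 44.8, 44.7 and 42.4 CPM in EM, against 22.7, 24.4 and 23.6 CPM in the gland. It too showed no overlap, and it rose by 1.00 ± 0.14 in DM (6.01e-05) and by 0.90 ± 0.14 in EM (0.000148).

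Irf7 had the largest rise against the gland among the 9. Its 90.0 to 298 CPM in DM and 192 to 206 CPM in EM stood against 12.8, 30.8 and 15.9 CPM in the gland, where sample 7 was highest. The rise was 3.18 ± 0.43 in DM (edgeR adjusted p = 3.44e-05) and 3.34 ± 0.43 in EM (2.45e-05). Irf1 had 90.9 to 113 CPM in DM and 79.1 to 86.7 CPM in EM, against 24.0, 21.7 and 20.3 CPM in the gland. It rose by 2.21 ± 0.11 in DM (8.18e-09) and by 1.93 ± 0.11 in EM (2.59e-08). All organoid libraries of both genes were above all gland libraries.

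The ISGF3 genes of the 9 had folds under 1 on the log2 scale. Irf9 had 91.8, 72.5 and 96.2 CPM in DM and 82.3, 82.0 and 80.3 CPM in EM, against 34.6, 54.8 and 45.9 CPM in the gland, with no overlap. It rose by 0.94 ± 0.15 in DM (edgeR adjusted p = 0.000147) and by 0.85 ± 0.15 in EM (0.000317). Stat2 had 81.4 to 160 CPM in DM and 139 to 147 CPM in EM, against 58.2, 91.3 and 80.9 CPM in the gland, which overlapped its DM libraries but not its EM libraries. Stat2 rose by 0.60 ± 0.22 in DM (0.0266) and by 0.90 ± 0.22 in EM (0.00314). The call in DM ended without gland 6 (0.45, adjusted p = 0.108), gland 8 (0.65, 0.0525) or line 8 in DM (0.31, 0.092).

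Irf3 ran against the rest. It had 39.6, 42.5 and 37.8 CPM in DM and 40.6, 44.1 and 48.9 CPM in EM, against 72.9, 71.8 and 85.6 CPM in the gland. Every organoid library was below every gland library, and Irf3 fell by 0.94 ± 0.10 in DM (edgeR adjusted p = 6.17e-06) and by 0.79 ± 0.10 in EM (2.69e-05). This direction depends on scaling: with total counts in place of the trimmed mean of M-values, the median log2 fold change of all genes moved by 1.97 in DM and 2.06 in EM, and Irf3 was higher in DM (1.03) and in EM (1.27). The 7 rises kept their sign under it. Exons of Irf3 overlap Bcl2l12 on the other strand by 88 bases, and those of Irf7 and Irf1 overlap an opposite-strand gene by 45 and 135 bases.

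Irf8 had 0.807 to 1.86 CPM in DM and 5.50 to 9.33 CPM in EM, against 11.7, 14.2 and 11.3 CPM in the gland, with no overlap. It fell in DM (-3.28 ± 0.32, edgeR adjusted p = 2.31e-06) and did not pass in EM (-0.64 ± 0.27, 0.0513), where total-count scaling gave 1.42. The macrophage and dendritic cell markers summed to 45.5 to 59.8 CPM in DM and 22.8 to 43.1 CPM in EM, against 678 to 905 CPM in the gland. Of the 16 markers tested, 14 fell and 1 rose in each medium, where 37.4% of all genes were called lower. Their part in the gland level of Irf8 was not tested. In uncloned organoids in EM, 10 of the 19 listed markers, Ptprc among them, had 0 counts, and the list summed to 2548 counts over the 3 libraries. Irf8 had 133 to 244 counts per library there, and the cells they came from were not tested.

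Outside the 9 genes, 23 of 24 interferon-stimulated effectors rose and 1 fell against the gland in either medium, with medians of 3.18 in DM and 3.34 in EM. Of all genes tested, 38.1% were called higher and 37.4% lower in DM, and 37.4% in each direction in EM. Oas3, an RNA-activated antiviral enzyme, rose by 6.63 in DM (edgeR adjusted p = 1.38e-08) and by 7.02 in EM (9.11e-09). Of 5 other STATs tested, 3 rose and 2 fell in each medium (medians 0.74 in DM and 0.65 in EM), which says little beside the shares of all genes called. Stat5b, a STAT of growth hormone and cytokine receptors, was among the falls, by 1.71 in DM (1.67e-07) and by 1.87 in EM (9.04e-08). Upstream genes were mixed: Zbp1 rose by 5.62 in DM (4.15e-07) and 5.06 in EM (1.13e-06), and Mavs fell by 1.41 in DM (1.01e-06) and fell by 0.88 in EM (4.61e-05). Ciita, the switch of MHC class II genes, fell by 3.78 in DM (3.39e-05) and fell by 4.67 in EM (1.17e-05).

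Per kilobase of merged exons, the order of the 9 genes differed between gland and organoids. In DM organoids Irf7 was highest at 47.2 ± 28.5 CPM per kilobase (SD, n = 3), Irf3 was seventh at 11.6 ± 0.69, and Irf8 was lowest at 0.179 ± 0.077; the ranges of neighbours from Irf7 down to Irf3 overlapped. In EM Irf7 led at 52.8 ± 1.79, ahead of Stat2 at 24.1 ± 0.67 and of Irf1 at 21.01 ± 0.997, whose range overlapped that of Ddx58. In the gland Irf3 led at 22.3 ± 2.22, ahead of Stat2 at 13.0 ± 2.85, whose range overlapped that of Irf9, and Irf8 was again lowest at 1.76 ± 0.22, overlapping Dhx58. With the longest transcript as length Irf1 was second in EM, at 39.1 ± 1.85, and Dhx58 was lowest in the gland, at 3.29 ± 0.65 against 3.58 ± 0.45 for Irf8.

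By the same length the clone groups had Irf7 first and Irf8 last. Irf7 averaged 316 ± 47.8 CPM per kilobase in KO clones in DM and 330 ± 5.60 in KO clones in EM, against 143 ± 16.2 in WT clones in DM and 39.9 ± 19.5 in WT clones in EM (SD, n = 2 each). Stat2 was second in both KO groups, at 64.5 ± 9.31 in DM and 63.0 ± 2.97 in EM, whereas Irf1 was second in both WT groups, at 57.9 ± 0.52 in DM and 31.5 ± 0.72 in EM. With the longest transcript Ddx58 was second in KO clones in DM, at 96.2 ± 2.47, and Irf1 was first in WT clones in EM, at 58.6 ± 1.33 against 46.5 ± 22.7 for Irf7. In WT clones in EM the ranges of Irf7 and Irf1 overlapped, as did those of Irf9, Stat2 and Irf3 in turn. Ifih1 was seventh or eighth in every organoid group, with 18.8 ± 0.26 in KO clones in EM against 5.49 ± 1.83 in WT clones in EM.

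**Figure D5:**
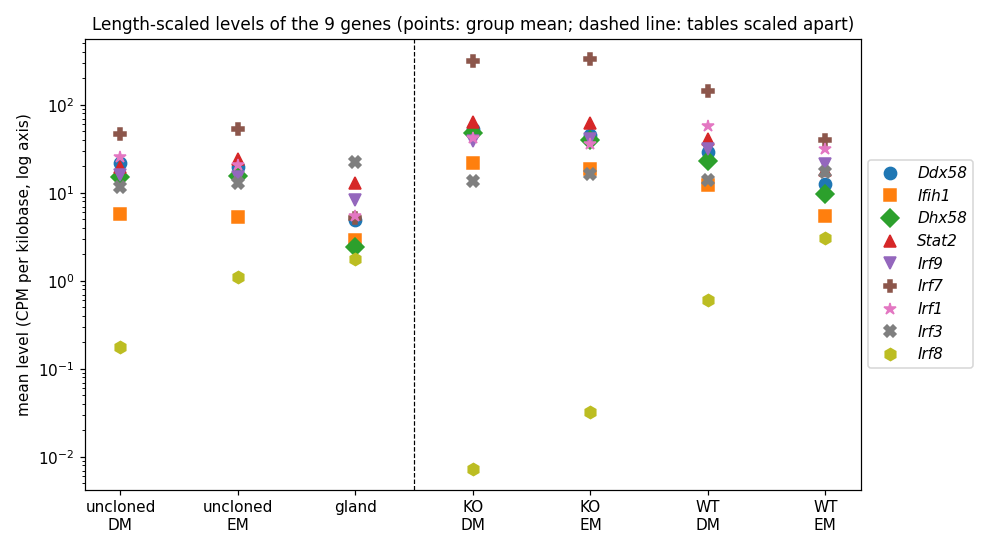
Group means of the 9 genes in CPM per kilobase of exon (log y axis) in uncloned organoids in DM and EM, gland, KO clones in DM and EM, and WT clones in DM and EM; the 2 tables, left and right of the dashed line, were scaled apart. Irf7 (brown plus) is highest in all 6 organoid groups and Irf3 (grey cross) in gland, and Irf8 (olive hexagon) is lowest in all 7 groups; with the longest transcript as length Irf1 is highest in WT clones in EM and Dhx58 lowest in gland.

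Among 11736 genes tested in both tables, likeness to each of the 9 was described by Pearson's r of log2 CPM, taking the smaller of r over 6 uncloned organoid libraries and r over 8 clone libraries. These libraries share lines, clones and media, and no test was made. Ddx58 was most like Zbp1 (smaller r 0.983), Psmb8 (0.953) and Gbp3 (0.951). Ifih1 was most like Ube2l6 (0.985), Rtp4 (0.982) and Ifi35 (0.977), and Irf9 was most like Ifih1 (0.977), Rtp4 (0.969) and Ifi35 (0.966). Dhx58 and Irf7 were near each other (0.976): Dhx58 was next nearest to Psmb9 (0.961) and Ifi213 (0.957), and Irf7 was nearest to Dtx3l (0.983) and Psmb9 (0.979).

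Stat2 was most like Znfx1 (0.979), Bst2 (0.974) and Oas3 (0.968). Irf1 was most like Serpinb9 (0.901), Eif2ak1 (0.898) and Lrrc66 (0.89), Irf3 was most like Mrpl34 (0.9), Hdac10 (0.894) and Smim11 (0.866), and Irf8 was most like Gramd1b (0.983), Sik1 (0.981) and Ptdss2 (0.977). Irf8 and Ddx58 had r of -0.94 over the clones and -0.12 over the uncloned organoids, whereas Irf8 and Stat2 had -0.94 over the clones and 0.70 over the uncloned organoids.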

How the data were processed

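The authors deposited 2 tables of counts per gene, whole numbers with no normalization. Per the submitters' processing notes they used STAR, featureCounts and GRCm38; the sources used here give no versions, settings or annotation releases. Per the labels' protocols, libraries came from a stranded kit for polyadenylated RNA. Gene IDs were named from GENCODE M21 on GRCm38, which also gave positions and merged exon lengths; 36429 of 38293 IDs matched in the table of gland and uncloned organoids and 55227 of 55487 in the clone table, and 0.313% and 0.00821% of counts lay on the others. All columns of values were used.

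Each table was fitted alone in R 4.3.3 with edgeR 4.0.16: filterByExpr, trimmed mean of M-values, a mean per group and the quasi-likelihood test, with 6 residual degrees of freedom for gland and uncloned organoids and 4 for clones, and biological coefficients of variation of 0.138 and 0.234. Adjusted p are Benjamini-Hochberg over all genes tested, and 72 values for the 9 genes were tested in 8 comparisons, the interaction included. SE were derived from the F statistic, as the size of the log2 fold change over the root of F. The steps were tested on simulated data, and the outcome of that test is not reported here. Group sums for a summed level use CPM.

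Alternatives were DESeq2 1.42.0 and its size factors, no filter on low counts, total-count scaling, only the 2 groups compared, each library left out, the line or clone as a replicate block, and the longest transcript as length. The labels give the same line to gland, EM and DM samples and the same clone to EM and DM samples. As a check of this pairing, residuals from the group means were correlated. For DM with EM, r was 0.181 in line 6, 0.122 in line 7 and 0.093 in line 8, for organoids with gland of a line -0.073 to 0.085, and for the media of a clone 0.507 (KO) and 0.603 (WT).

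The genes and the lists around them were chosen with earlier results of these data known. Text names all 9 genes in every comparison, up to 4 genes of a list with the smallest p, and the 3 genes most like each of the 9; some list genes are not reported here. Counts by exon and the reads were not used here.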

Additional observations from a re-analysis of the deposited data

How the results depend on the processing

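Of 72 log2 fold changes, 33 were called by edgeR, and the 782 values under alternatives kept direction and side of the threshold in 336 cases with a library left out and in 355 others. Only 2 called ones changed sign, Irf3 over gland with total-count scaling, at 1.03 in DM and 1.27 in EM; among those not called, total-count scaling gave 1.42 for Irf8 in EM over gland, -0.002 for Stat2 in KO in DM over EM and 0.006 for Irf3 in KO over WT in DM. The line as a replicate block changed no call of the 9 genes, and for KO over WT no paired analysis was possible because a clone has a single label.

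In uncloned DM over EM, the 2 genes of the 9 called became 1 with no filter, with total-count scaling and with only the 2 groups compared. The number of all genes called under these alternatives is not reported here, so a change particular to the 9 cannot be read from it. In WT clones in DM over EM, 5 became 8 with no filter, with DESeq2 and with the clone as a replicate block, and 2 with only the 2 groups. The 2247 genes called in all became 3497 with no filter, 3649 with the block and 924 with only the 2 groups. The number of all genes for DESeq2 in WT clones is not reported here. In KO clones in DM over EM, 1193 genes became 2572 with no filter, 1973 with DESeq2 and 2338 with the block. In KO over WT in EM, 1399 became 2947 with no filter and 2222 with DESeq2. In KO over WT in DM, 2 of the 9 became 7 with no filter and with DESeq2 and 0 with only the 2 groups, and 781 genes became 2547, 1681 and 110. For the interaction, 0 of the 9 became 5 with no filter, 4 with DESeq2 and 1 with the block, and 0 genes became 657, 195 and 74. The unfiltered and block fits differ from the others in the genes tested or in the samples' pairing; the cause of each shift was not tested.

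With a library left out, the number of the 9 called ran from 1 to 4 in uncloned DM over EM, from 3 to 7 in KO over WT in EM and from 0 to 1 in KO over WT in DM. Genes called ran from 789 to 1956 in WT clones in DM over EM, from 82 to 284 in KO clones in DM over EM, from 175 to 494 in KO over WT in EM, from 0 to 524 in KO over WT in DM (0 without KO clone 1 in DM) and from 0 to 14 for the interaction. In uncloned DM over EM, 2894 to 5360 genes were called with a library left out. Where a library left out turned the sign of a value that was not called, the ranges in uncloned DM over EM were -0.002 to 0.33 for Ddx58, -0.03 to 0.265 for Ifih1, -0.3 to 0.105 for Dhx58 and -0.757 to 0.157 for Irf7. They were -0.123 to 0.173 for Stat2, -0.225 to 0.085 for Irf7 and -0.137 to 0.014 for Irf9 in KO clones in DM over EM, and -0.125 to 0.052 for Irf3 in KO over WT in DM. For the interaction they were -0.039 to 0.138 for Irf3 and -2.92 to 1.42 for Irf8.

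The summed level of the 9 genes, in CPM per kilobase, was 163 in uncloned DM, 168 in uncloned EM and 66.4 in the gland; total-count scaling gave 253, 276 and 26.2, and the longest transcript as length 241, 244 and 104. In the clones it was 599 in KO in DM, 590 in KO in EM, 352 in WT in DM and 159 in WT in EM; the longest transcript gave 807, 786, 501 and 239, and total-count scaling 602 in KO in EM and 341 in WT in DM. Irf7 alone made up 316 CPM per kilobase of merged exons of this sum in KO in DM and 330 in KO in EM. In WT it made up 143 in DM and 39.9 in EM. Clone groups of 2 limit the precision of these sums, and Irf8 counts under 10 in KO libraries limit that of the Irf8 folds.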
